A study of Mus musculus with 2 samples.

Results

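Primitive, visceral and definitive endoderm genes were examined in mouse embryonic stem (ES) cells that had been cultured for 72 h in medium from which LIF had been withdrawn, a cytokine that keeps ES cells self-renewing. The genes were taken by symbol from a list of 38 endoderm genes, and all 38 were among the 21935 gene symbols (27405 transcript entries) of the deposited tables. The list holds transcription regulators, secreted signals, surface and endocytic receptors, apolipoproteins and other serum proteins, clotting proteins and protease inhibitors, and 1 matrix protein. In bulk RNA, a smaller number of endoderm cells and less endoderm RNA per cell cannot be told apart, and every difference given here can stand for either.

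R1 ES cells, a mouse line maintained on irradiated embryonic fibroblast feeders, were infected with lentivirus made from the pGreenPuro vector and selected with puromycin. The shLuc ES cells carried a short hairpin RNA (shRNA) against luciferase and served as the control, and the shKdm5b ES cells carried one against *Kdm5b*, a histone H3 lysine 4 demethylase. Per the labels, differentiation took place in low-attachment dishes in which the cells grow as aggregates, and polyadenylated RNA was sequenced. The comparison asks how depletion of *Kdm5b* alters the genes that ES cells express once LIF is withdrawn.

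The libraries held 78172698 (shLuc) and 72702698 (shKdm5b) aligned reads of 50 bases. Expression is given as RPKM, the reads of a transcript relative to its length and to the depth of the library, beside the read count itself. The RPKM of *Kdm5b* itself was 104 in shLuc and 3.01 in shKdm5b ES cells, or 2.88% of the control level. With 1 library per condition, no value has a replicate, no test of the condition was possible, and effects of the hairpin cannot be told apart from those of the library. The percentages of the shLuc level below are ratios of RPKM, and their 95% intervals (exact Clopper-Pearson method) cover counting error only.

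In the mouse blastocyst the inner cell mass separates into the epiblast and the primitive endoderm, and the transcription factors GATA6, GATA4, SOX17 and SOX7 mark the primitive endoderm. Its descendants are the visceral endoderm, which covers the embryo, takes up maternal protein through CUBN, AMN, LRP2 and DAB2 and secretes serum proteins under HNF4A, and the parietal endoderm, which lays down a thick basement membrane. Definitive endoderm, the source of gut, liver and pancreas, arises later from the primitive streak and uses several of the same regulators, among them SOX17 and the FOXA factors. Aggregates of ES cells in suspension form an outer layer of primitive and visceral endoderm when LIF is removed.

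The promoters of 4 members that differ widely between the libraries are shown first, because binding motifs of regulators from the same list can be read in them. Each sequence runs 5′ to 3′ from 250 bases before the annotated start to 50 bases after it (RefSeq, build GRCm38.p6). Capitals mark matches on either strand to motifs of the endoderm regulators. The GATA motif was searched as TGATAA and, in the other accepted spelling, as AGATAA. The HNF4 motif was searched as CAAAGTCCA and, with 1 base changed, as CAAAGTTCA. The HNF1 motif was searched as GTTAAT. The FOXA motif was searched as TGTTTAC and, in the other accepted spelling, as TATTTAC. *Cubn* (chr2:13491827-13492126, minus strand) had the lowest log2 ratio of the list and no match in its window. *Dab2* (chr15:6299539-6299838, plus strand, 1 of 2 annotated starts) was the best expressed of the members that were lower, and it had GATA matches at positions -179 and 15 from the start. *Apoa4* (chr9:46240594-46240893, plus strand) was the only member found with an HNF4 match, at position -182. *Afp* (chr5:90490464-90490763, plus strand), a classical visceral endoderm gene, had an HNF1 match at position -105.
Cubn: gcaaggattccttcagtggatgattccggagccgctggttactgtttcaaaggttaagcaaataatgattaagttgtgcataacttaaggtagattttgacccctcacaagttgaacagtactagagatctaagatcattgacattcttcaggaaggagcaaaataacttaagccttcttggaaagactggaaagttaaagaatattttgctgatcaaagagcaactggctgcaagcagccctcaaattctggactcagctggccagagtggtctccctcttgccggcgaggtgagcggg
Dab2: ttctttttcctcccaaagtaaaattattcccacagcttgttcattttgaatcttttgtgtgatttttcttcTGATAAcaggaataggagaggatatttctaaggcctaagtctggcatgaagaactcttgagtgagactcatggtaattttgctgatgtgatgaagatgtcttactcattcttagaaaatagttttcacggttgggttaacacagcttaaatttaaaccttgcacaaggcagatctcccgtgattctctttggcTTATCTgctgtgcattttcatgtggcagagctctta
Apoa4: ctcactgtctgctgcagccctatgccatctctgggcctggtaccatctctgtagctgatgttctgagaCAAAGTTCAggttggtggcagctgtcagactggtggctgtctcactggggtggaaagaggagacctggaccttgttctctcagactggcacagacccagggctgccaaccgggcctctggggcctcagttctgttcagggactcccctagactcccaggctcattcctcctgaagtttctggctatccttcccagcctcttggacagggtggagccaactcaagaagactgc
Afp: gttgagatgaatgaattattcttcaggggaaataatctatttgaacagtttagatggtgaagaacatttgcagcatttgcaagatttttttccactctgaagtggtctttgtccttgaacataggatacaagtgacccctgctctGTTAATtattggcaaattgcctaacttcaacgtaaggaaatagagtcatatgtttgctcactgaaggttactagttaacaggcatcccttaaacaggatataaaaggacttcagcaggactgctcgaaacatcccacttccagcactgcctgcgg

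Promoter windows were found for 29 of the 38 members, with 41 windows in all. The members without one were *Bmp2*, *Gata4*, *Gata6*, *Sox17*, *Sox7*, *Spink3*, *Thbd*, *Trf* and *Ttr*. A GATA match was present in 5 of the 41 windows (12.2%), against 18.6% of all 32851 windows of the same length. The HNF1 letters occurred in 10 windows (24.4%), against 7.10% of all windows, and the FOXA letters in 6 (14.6%), against 6.54%. The HNF4 letters occurred in 1 window (2.44%), against 0.861%. By these counts the HNF1 and FOXA letters had a larger share in the member windows than in all windows, and the GATA letters a smaller one. The shares rest on few windows, some of them of the same gene, and were not tested. A match to a few letters does not show that a factor binds there.

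Most endoderm genes were lower in shKdm5b ES cells. Of the 37 members with a read in either library, 34 had a lower RPKM in the shKdm5b library and 3 (*Hhex*, *Apoe* and *Sparc*) a higher one. Of all 18155 genes with a read, 62.3% were lower and 37.7% higher. The counting interval of the ratio lay below 100% of the shLuc level for 27 members, above it for 3 and across it for 7, and over all genes it lay below for 45.3% and above for 26.0%. In the shLuc library 20 members had an RPKM above 1, and in the shKdm5b library 5 did, where over all genes the numbers were 11553 and 11014. Apart from *Apoe*, *Sparc* and *Dab2*, no member exceeded an RPKM of 5.56 in either library, and the number of reads behind each value sets how precisely it is known.

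**Figure D1:**
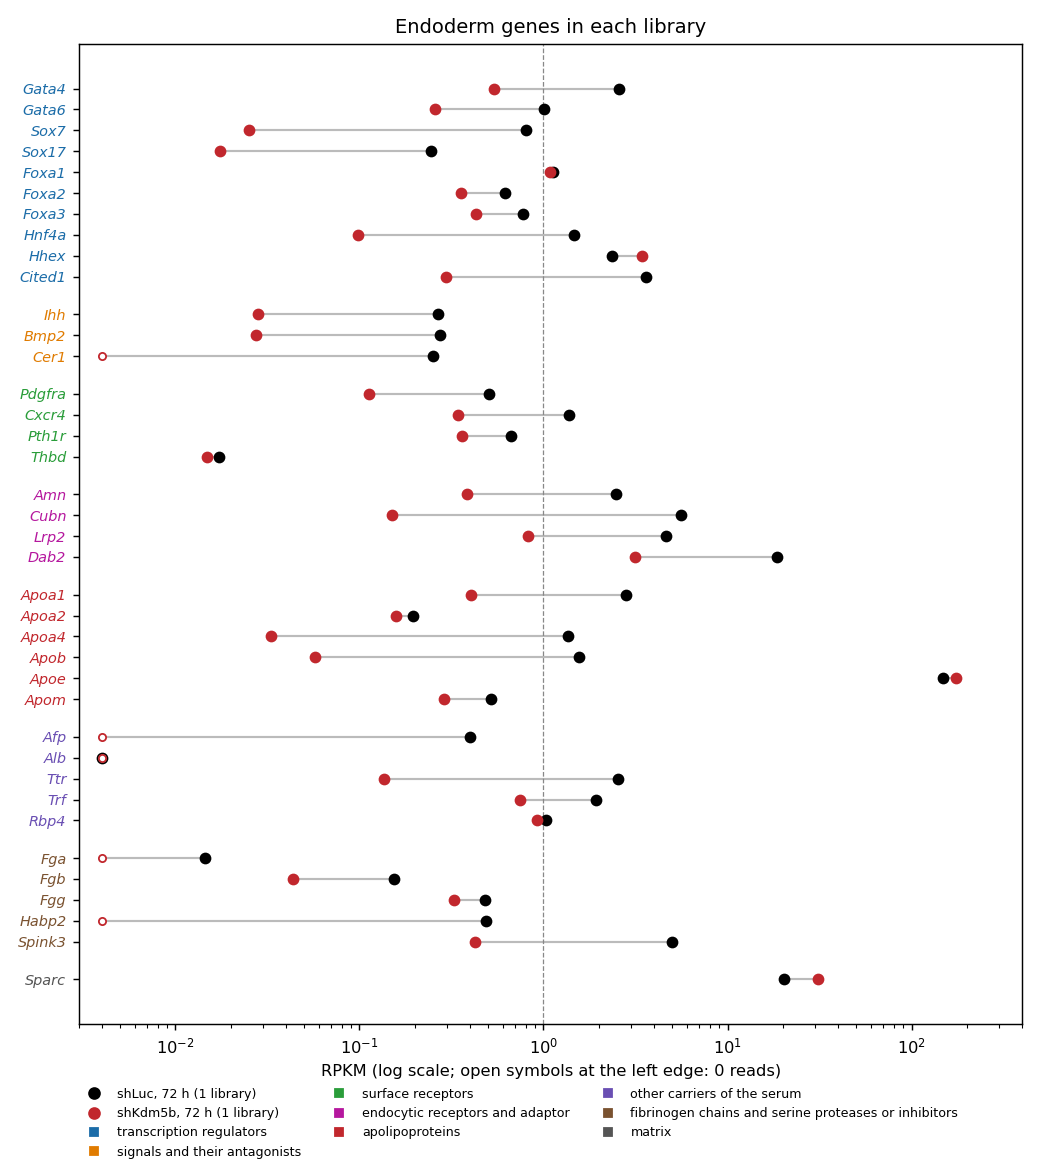
RPKM (log scale) of each endoderm gene in the shLuc and shKdm5b libraries, grouped by role, with 1 point per library (black shLuc, red shKdm5b), a line joining the pair, open symbols at the left edge for 0 reads and a dashed line at an RPKM of 1. *Apoe* and *Sparc* have the highest levels in both libraries, and most other genes lie further left in shKdm5b than in shLuc.

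By the thresholds of the study for fold change (above 1.5, taken here on the log2(RPKM + 0.1) scale) and RPKM (above 1 in at least 1 library), 20 members could be compared. Of these, 15 were lower in shKdm5b ES cells, and 32.0% of the 11804 genes compared in the same way were lower. Higher past the thresholds was 1 member, *Sparc*, where 16.3% of all genes were higher. A difference of more than 4-fold downwards, a cut chosen after the data were seen, was found for 12 of the 20 members and for 1.79% of all genes. Among genes whose higher RPKM lay between 1 and 6, a difference of that size was found for 11 of 17 members and for 3.19% of genes. Genes that pass an RPKM of 1 only in the library where they are high tend to differ, so these counts describe the members that passed and not the whole list.

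With a mean RPKM above 0.1, which 34 members met, 27 were lower by more than 1.5-fold (32.4% of the 14773 genes with that mean) and 1 was higher (15.3% of genes). The median log2 ratio of shKdm5b to shLuc was -1.68 over these 34 members and -0.22 over the 14773 genes. As a share of the control, the median level was 17.4% for the members and 84.6% for all genes. With the genes that had no read in the shKdm5b library set at a floor of 3 reads, the median of the members was -1.59. The 20 members with an RPKM above 1 in at least 1 library were ranked by log2 ratio, from the lowest, among the 11804 such genes. Of these members, 6 were among the lowest 50, 11 among the lowest 100 and 14 among the lowest 500. All 20 had an RPKM above 1 in shLuc and 5 had one in shKdm5b ES cells. Most were thus ranked only through the library where they are high, and the ranks do not describe the whole list. Many of the lowest 50 entries were small RNAs with few reads.

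The log2 ratio also followed the GC content of the transcripts over all genes (Spearman correlation -0.53 across 11535 genes, which are not independent replicates). The GC content of the 38 members ran from 43.5% to 62.9% with a median of 52.2%, and the median of all genes with an RPKM above 1 was 50.5%. After a curve on GC content was taken out, the median log2 ratio was -1.52 for the members and -0.03 for all genes. All 16 members past the thresholds remained past them in the same direction, while *Foxa2*, *Foxa3*, *Pth1r* and *Apom*, which had been lower by more than 1.5-fold, came to lie within 1.5-fold of the control.

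**Figure D2:**
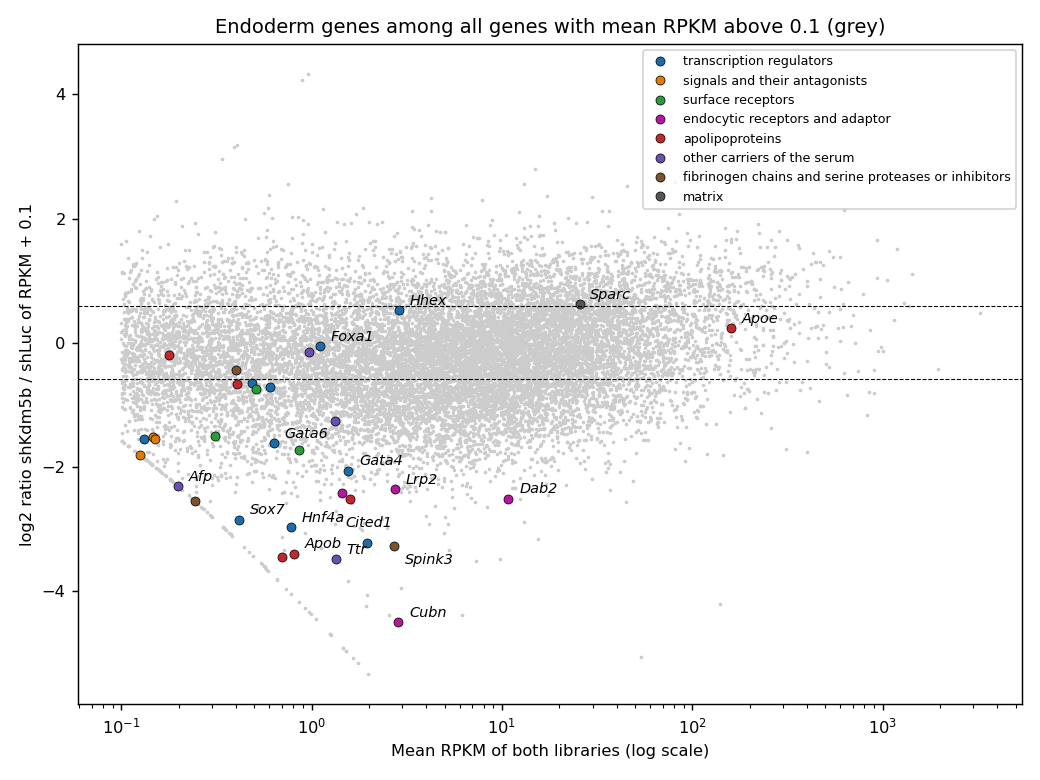
Log2 ratio of shKdm5b to shLuc on the log2(RPKM + 0.1) scale against the mean RPKM of both libraries (log scale), for the 14773 genes with a mean RPKM above 0.1 (grey) and the 34 endoderm genes among them (coloured by role). Dashed lines mark 1.5-fold in either direction. *Cubn* is the lowest endoderm gene at -4.50, and *Sparc*, at 0.62, is the highest.

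The transcription regulators divided into members that were many times lower and members that were near the control level or above it. Of the 10, 6 reached an RPKM of 1, and 4 of these (*Gata4*, *Gata6*, *Hnf4a* and *Cited1*) were lower past the thresholds. Coordinates of genes are those of GRCm38. *Gata4* (chromosome 14, 63198914 to 63271712), a zinc finger factor of primitive endoderm and heart, had an RPKM of 2.58 (683 reads) in shLuc and 0.539 (133 reads) in shKdm5b ES cells, or 20.9% of the control (95% interval 17.3 to 25.2). *Gata6*, which acts ahead of *Gata4* when primitive endoderm is specified, had an RPKM of 1.01 (251 reads) and 0.258 (60 reads), or 25.7% (19.1 to 34.2). Both GATA factors were thus at about the same share of the control, with intervals that overlap. Their transcripts are rich in GC, and after the GC correction the log2 ratios moved from -2.07 to -1.43 for *Gata4* and from -1.62 to -1.11 for *Gata6*.

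The SOX factors of the endoderm were also low in shKdm5b ES cells, from a lower starting level than *Gata4* and *Gata6*. *Sox7* had an RPKM of 0.807 (206 reads) in shLuc and 0.0253 (6 reads) in shKdm5b ES cells, or 3.13% (1.14 to 6.93). *Sox17*, a factor of both primitive and definitive endoderm, had 60 reads in shLuc and 4 in shKdm5b ES cells, or 7.17% (1.89 to 19.3). Neither gene reached an RPKM of 1, so neither counts toward the members past the thresholds, although both intervals lie far below the control level. The GC correction left them nearly in place, at log2 ratios of -2.79 for *Sox7* and -1.52 for *Sox17*.

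*Hnf4a* (chromosome 2, 163506811 to 163572907), the nuclear receptor that drives serum protein genes in visceral endoderm and liver, had an RPKM of 1.46 (496 reads) and 0.0978 (31 reads), or 6.72% (4.52 to 9.66). *Cited1*, a transcriptional coactivator without a DNA-binding domain, had an RPKM of 3.62 (276 reads) and 0.296 (21 reads), or 8.18% (4.98 to 12.8). Both were more than 10 times lower and kept most of that difference after the GC correction (log2 ratios of -2.71 and -2.48).

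The FOXA factors, which open chromatin at endoderm genes, lay closer to the control. *Foxa1* had an RPKM of 1.13 (281 reads) and 1.08 (250 reads), or 95.7% (80.3 to 114), and its direction turned under the other scalings of the libraries and under the GC correction (log2 ratio from -0.06 to 0.43). *Foxa2* had 103 and 55 reads, or 57.4% (40.6 to 80.4), and *Foxa3* had 124 and 64 reads, or 55.5% (40.4 to 75.6). After the GC correction their log2 ratios were -0.08 for *Foxa2* and -0.27 for *Foxa3*, so neither was lower by 1.5-fold under that correction. *Hhex*, a homeobox gene of the anterior visceral and definitive endoderm, was higher in shKdm5b ES cells, with an RPKM of 2.35 (325 reads) in shLuc and 3.41 (439 reads) in shKdm5b ES cells, or 145% (126 to 168). It stayed within 1.5-fold as deposited and passed that threshold once the libraries were scaled to the same median.

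**Figure D3:**
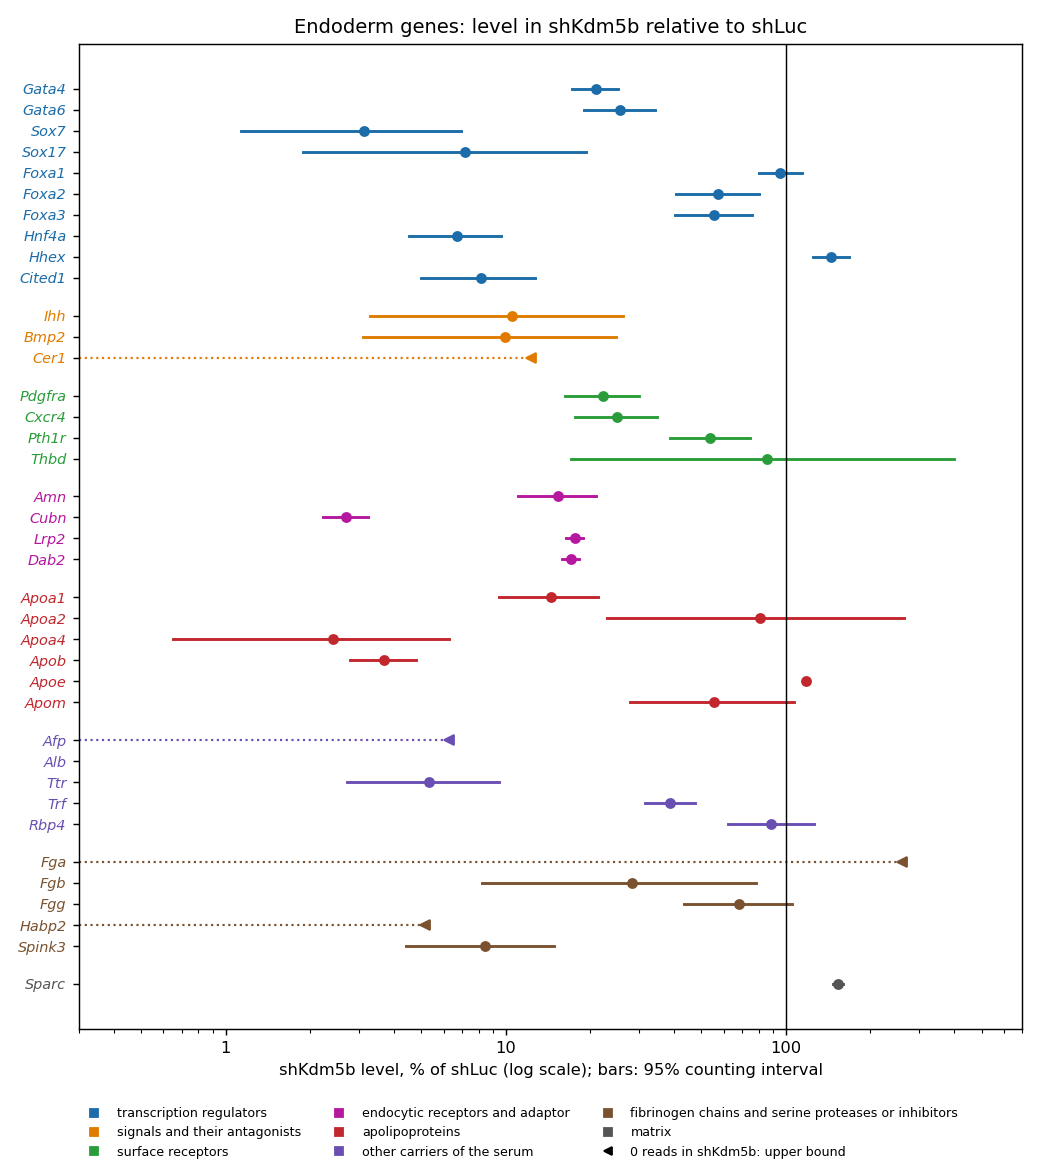
Level of each endoderm gene in the shKdm5b library as a percentage of the shLuc library (log scale), with bars for the 95% counting interval and arrows for the upper bound of genes with 0 reads in shKdm5b. The black line marks equal levels. The intervals of *Hhex*, *Apoe* and *Sparc* lie above it, those of *Foxa1*, *Thbd*, *Apoa2*, *Apom*, *Rbp4*, *Fga* and *Fgg* cross it, those of the other members with reads lie below it, and *Alb*, with no read, has no point.

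The secreted signals *Ihh* and *Bmp2* and the antagonist *Cer1* had few reads in the control and at most 5 after depletion of *Kdm5b*. *Ihh*, a hedgehog ligand of the visceral endoderm, had 51 reads in shLuc and 5 in shKdm5b ES cells, or 10.5% (3.28 to 26.2). *Bmp2*, which visceral endoderm secretes toward the epiblast, had 54 and 5 reads, or 9.96% (3.11 to 24.7). *Cer1*, an antagonist of *Nodal*, BMP and Wnt ligands made by the anterior visceral endoderm, had 34 and 0 reads. The counting interval of *Cer1* allows up to 12.3% of the control level.

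All 4 surface receptors had fewer reads in shKdm5b ES cells, with intervals below the control level for 3 of them. *Cxcr4*, the chemokine receptor used to sort definitive endoderm, had an RPKM of 1.37 (194 reads) and 0.341 (45 reads), or 24.9% (17.6 to 34.6), and was the 1 receptor past the thresholds. *Pdgfra*, a growth factor receptor on primitive endoderm cells, had 260 and 54 reads, or 22.3% (16.3 to 30.0). *Pth1r*, the parathyroid hormone receptor of parietal endoderm, had 116 and 58 reads, or 53.8% (38.5 to 74.3). Both have several transcript entries, and neither reached an RPKM of 1 by the entry used. With the entries of a gene summed, which can count a shared read more than once, both passed the thresholds as lower. The log2 ratio then went from -1.51 to -1.77 for *Pdgfra* and from -0.74 to -0.80 for *Pth1r*. The log2 ratio of *Pth1r* after the GC correction was -0.05, so it was not lower by 1.5-fold under that correction. *Thbd*, the thrombomodulin gene, had 5 and 4 reads, and no difference was detectable at this depth (interval 17.1 to 400%).

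All 4 genes for uptake of ligands at the apical surface of the visceral endoderm were lower past the thresholds. Their reads added up to 16362 in shLuc and 1964 in shKdm5b ES cells. *Cubn* (chromosome 2, 13276338 to 13491876), the gene of the receptor cubilin, had an RPKM of 5.56 (4920 reads) and 0.149 (123 reads), or 2.69% (2.23 to 3.21). Its log2 ratio of -4.50 was the lowest of the list and ranked 12 from the lowest among the 11804 genes. *Amn* (chromosome 12, 111271096 to 111276426), whose product amnionless anchors cubilin in the membrane, had an RPKM of 2.49 (328 reads) and 0.384 (47 reads), or 15.4% (11.1 to 21.0).

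*Lrp2* (chromosome 2, 69424335 to 69586029), the gene of megalin, had an RPKM of 4.65 (5626 reads) and 0.822 (924 reads), or 17.7% (16.5 to 18.9). *Dab2* (chromosome 15, 6299788 to 6440715), the adaptor that links such receptors to clathrin, had an RPKM of 18.5 (5488 reads) and 3.15 (870 reads), or 17.0% (15.9 to 18.3). As deposited, the intervals of *Amn*, *Lrp2* and *Dab2* overlapped, and the interval of *Cubn* lay well below theirs. Apart from *Amn*, these genes had at least 4920 reads in the control, so counting error is small here. Their GC content differs, and after the correction the log2 ratios were -1.62 for *Amn*, -2.24 for *Lrp2*, -2.58 for *Dab2* and -4.55 for *Cubn*, so *Amn*, *Lrp2* and *Dab2* were then further apart.

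The 6 apolipoproteins differed among themselves, with 3 lower past the thresholds. *Apoa1* (chromosome 9, 46228630 to 46230469), the main protein of high density lipoprotein, had an RPKM of 2.79 (215 reads) and 0.405 (29 reads), or 14.5% (9.48 to 21.4). *Apoa4*, which lies in the same cluster, had an RPKM of 1.37 (178 reads) and 0.0330 (4 reads), or 2.42% (0.651 to 6.30). *Apob*, the protein of low density lipoprotein, had an RPKM of 1.56 (1697 reads) and 0.0574 (58 reads), or 3.67% (2.78 to 4.77). These are the 3 genes past the thresholds, and the intervals of *Apoa4* and *Apob* overlap below that of *Apoa1*.

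*Apoe*, which many cell types make, had by far the highest RPKM of the list, with 147 (14406 reads) in shLuc and 173 (15763 reads) in shKdm5b ES cells, or 118% (115 to 120). It was within 1.5-fold as deposited and above it after the GC correction (log2 ratio 1.07). *Apom* had 29 and 15 reads, or 55.6% (27.7 to 107), and *Apoa2* had 8 and 6 reads, or 80.6% (23.1 to 265). At these depths no difference of *Apom* or *Apoa2* was detectable, and the log2 ratio of *Apom* moved from -0.67 to -0.25 with the GC correction.

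Of the 5 other carrier proteins of the serum, 3 reached an RPKM of 1, and *Ttr* and *Trf* of these were lower past the thresholds while *Rbp4* was within them. *Ttr*, the thyroxine carrier transthyretin, had an RPKM of 2.55 (243 reads) and 0.135 (12 reads), or 5.31% (2.71 to 9.45). *Trf*, the iron carrier transferrin, had an RPKM of 1.92 (350 reads) and 0.743 (126 reads), or 38.7% (31.3 to 47.6), and its log2 ratio moved from -1.26 to -0.90 with the GC correction. *Afp*, the fetal counterpart of albumin and a standard visceral endoderm marker, had 65 reads (RPKM 0.399) in shLuc and 0 in shKdm5b ES cells, which allows up to 6.28% of the control level. *Rbp4*, the retinol carrier, was near the control level with 75 and 62 reads, or 88.9% (62.5 to 126). *Alb* had no read in either library, and a floor of 3 reads corresponds to an RPKM of 0.0188 in shLuc and 0.0202 in shKdm5b ES cells.

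The proteins of clotting and the protease inhibitor were few in reads, yet 2 of the 5 differed widely. *Spink3* (named *Spink1* in GRCm38), a trypsin inhibitor, had an RPKM of 5.00 (165 reads) and 0.424 (13 reads), or 8.47% (4.42 to 14.9), and was the 1 gene of this group past the thresholds. *Habp2*, a serine protease that binds hyaluronan, had 79 and 0 reads, which allows up to 5.14% of the control level. Of the fibrinogen chains, *Fgb* had 19 and 5 reads, or 28.3% (8.26 to 78.3), and *Fgg* had 57 and 36 reads, or 67.9% (43.5 to 105). *Fga* had 3 and 0 reads, at or under the floor of 3 reads, and no ratio is given. Of the 3 chains, a difference was thus detectable at this depth for *Fgb* alone.

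*Sparc*, a matrix protein that parietal endoderm makes in large amounts and other cells make too, was the only member higher past the thresholds. It had an RPKM of 20.2 (3626 reads) in shLuc and 31.0 (5178 reads) in shKdm5b ES cells, or 154% (147 to 160). The log2 ratio of 0.62 became 1.02 after the GC correction. Feeder fibroblasts also make *Sparc*, and the summed RPKM of 15 fibroblast markers was 10.8 in shLuc and 16.0 in shKdm5b ES cells, and 4 of the 15 had an RPKM above 1. *Twist1* (249 and 836 reads) was the only marker higher past the thresholds and *Acta2* (266 and 153 reads) the only one lower. Without *Twist1* the sums were 8.85 and 8.91. The median log2 ratio of the markers was 0.17 as deposited and 0.70 after the GC correction. Among the defining markers, *Lum* and *Postn* had at most 4 reads in either library, *Col1a1* had 174 and 135 reads, *Col1a2* had 57 and 75, and *Dcn* had 17 and 43. The part of feeder cells in the level of *Sparc* was not tested.

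Some members were also compared with the genes that lie beside them. In the apolipoprotein cluster on chromosome 9 (46228630 to 46271921, 43.3 kb, GRCm38), *Apoa1* and *Apoa4* were both lower, while *Apoc3* and *Apoa5* had 1 and 3 reads in the control and cannot be judged. On chromosome 7, *Apoe* and its neighbour *Apoc1* lie within 11.8 kb (19689480 to 19701310), and *Apoc1* had 199 and 510 reads, or 276% (233 to 326). *Apoc4*, which lies outside this span (19678084 to 19681460), had no read in either library. *Apoc2*, for which no coordinates were obtained, had 14 reads in shLuc and 0 in shKdm5b ES cells. On chromosome 5 (90460870 to 90508907, 48 kb), *Afp* had reads in the control and its neighbour *Alb* had none. On chromosome 3 the fibrinogen genes lie within 42.1 kb (83007724 to 83049863), and *Plrg1*, the next gene after *Fgb*, was at 121% (117 to 126) of the control with 4723 and 5336 reads.

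Other genes of the same lineages were examined as lists, to set the 38 genes in their pathway. Of 23 other visceral endoderm genes, 12 had an RPKM above 1, and 5 of these were lower and 3 higher past the thresholds. Their median log2 ratio was -0.74 as deposited and -0.19 after the GC correction, beside -0.22 and -0.03 for all genes. The best expressed of the list were *Ctsl*, *Emb*, *Cldn6* and *Tfpi*, which other tissues express as well. *Ctsl*, a lysosomal protease, had an RPKM of 105 and 120, and *Cldn6*, a tight junction protein, 65.9 and 63.2. *Emb*, the glycoprotein embigin, was higher past the thresholds with an RPKM of 81.8 and 129, as was *Tfpi*, an inhibitor of the tissue factor pathway, with 14.1 and 24.9. Both came within 1.5-fold after the GC correction (log2 ratio 0.46 for each).

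Among the less expressed genes of that list, some were lower to a degree like that of the members. They are named after their values were seen. *Clic6*, a chloride channel protein, had 1322 and 131 reads, and *Soat2*, which esterifies cholesterol, had 404 and 56. Both stayed lower by more than 1.5-fold after the GC correction, with log2 ratios of -2.67 and -1.97. *Muc13*, a mucin of the apical surface, had 112 and 2 reads, and *S100g*, a calcium-binding protein, 20 and 0. The list therefore held both genes that were lower many times and widely expressed genes that were not.

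**Figure D4:**
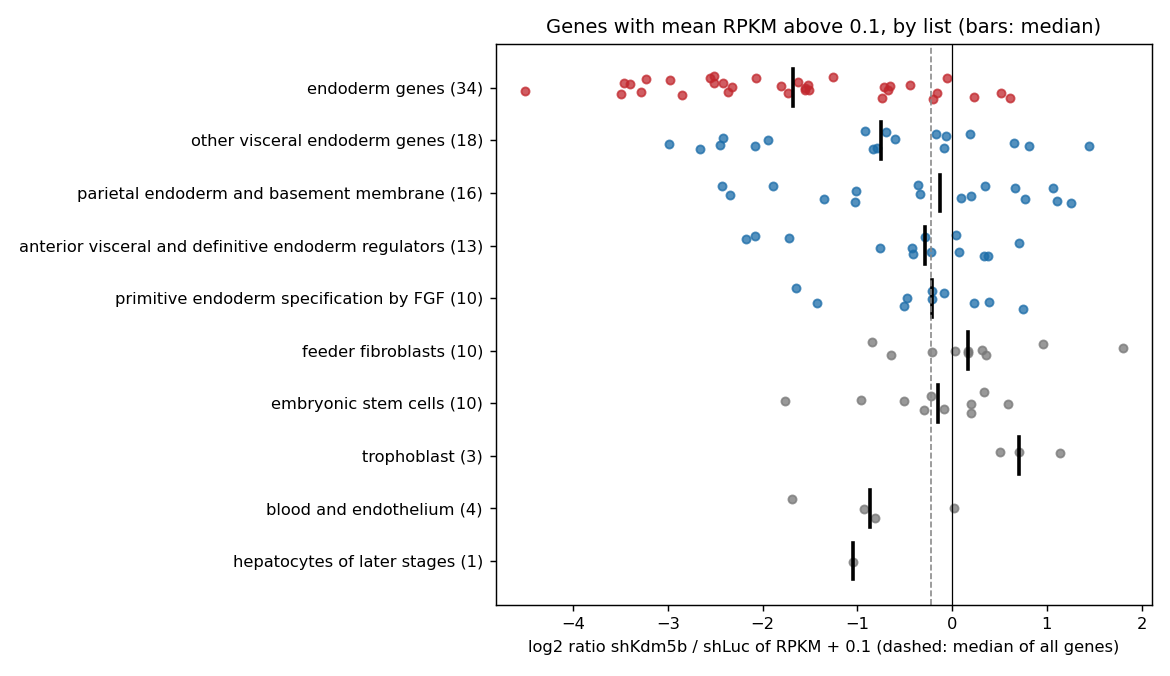
Log2 ratio of shKdm5b to shLuc on the log2(RPKM + 0.1) scale for each gene with a mean RPKM above 0.1, in the endoderm genes (red), the other endoderm lists (blue) and the cell type markers (grey), with bars at the list medians, a dashed line at the median of all genes (-0.22) and the number of genes in brackets. The median of the endoderm genes lies at -1.68, and those of the other endoderm lists lie between -0.74 and -0.12.

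Of 16 genes of the parietal endoderm and basement membrane, 14 had an RPKM above 1, with 6 lower and 4 higher past the thresholds. The median log2 ratio of the list was -0.12 as deposited and 0.32 after the GC correction, so its direction turned. *Nid2*, the basement membrane protein nidogen 2, had the highest mean, with an RPKM of 56.8 and 60.7. *P4ha1*, a prolyl hydroxylase for collagen, was higher with 15.7 and 33.0, and *Krt18*, a keratin of simple epithelia, was higher with 12.3 and 19.6. *Lamc1*, the laminin gamma 1 chain, was lower with 30.0 and 14.7, though within 1.5-fold after the GC correction (log2 ratio -0.58). The laminin and collagen chains that passed the thresholds were all lower. Also lower were the keratin *Krt8* (739 and 261 reads) and *Serpinh1* (2856 and 1307 reads). Their log2 ratios after the GC correction were -0.67 and -0.36, the latter within 1.5-fold. The genes that were higher were the keratins *Krt18* and *Krt19*, *P4ha1* and *Fst*, so the keratins went in both directions. The genes of this comparison are named after their values were seen.

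By their median, regulators of the anterior visceral and definitive endoderm, most of which the epiblast also expresses, lay closer to the control than the 38 members. Not all did. Below an RPKM of 1, *Lhx1* (139 and 13 reads) and *Dkk1* (118 and 22 reads) were many times lower. *Gsc* (33 and 21 reads) and *Mixl1* (50 and 35 reads) differed less. The genes below an RPKM of 1 are named after their values were seen. Of 13, 9 had an RPKM above 1, with 2 lower, among them *Lefty1*, and 1 higher (*Eomes*) past the thresholds and a median of -0.29 (0.03 after the GC correction). *Tdgf1*, the *Nodal* coreceptor, had an RPKM of 323 and 406, *Otx2*, a homeobox factor of anterior epiblast and visceral endoderm, 149 and 111, and *Smad4*, a mediator of TGF-beta signals, 32.5 and 42.4. *Lefty1*, a *Nodal* inhibitor, was lower with 90.7 and 53.6, but its log2 ratio moved from -0.76 to 0.03 after the GC correction. Of 10 genes of the FGF pathway that specifies primitive endoderm, all had an RPKM above 1, with 2 lower (*Spry4* and *Etv4*) and 1 higher (*Dusp6*) past the thresholds and a median of -0.22 (-0.16 after the GC correction).

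In that FGF list, *Nanog*, the factor that opposes *Gata6* in the inner cell mass, had an RPKM of 90.2 in shLuc and 85.0 in shKdm5b ES cells. *Fgf4*, the ligand, had 82.9 and 58.4, and *Etv5*, a transcription factor downstream of FGF, 90.4 and 65.0. *Dusp6*, a phosphatase that ERK signals induce, was higher with 22.7 and 38.1. These 4 genes were well expressed in both libraries, and *Dusp6* alone of them passed the thresholds. Of the genes that were lower, *Spry4* had an RPKM of 38.9 and 14.4 and *Etv4* 14.1 and 4.42. After the GC correction the log2 ratios were -1.13 for *Spry4*, -0.86 for *Etv4* and 0.88 for *Dusp6*, all still past 1.5-fold.

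Markers of other cell types were examined beside the endoderm genes. The summed RPKM of 10 ES cell markers was 3089 in shLuc and 3161 in shKdm5b ES cells. Of the 10, 7 lay within the thresholds, 2 were lower and 1, *Dppa5a*, was higher (RPKM 1096 and 1651). Without *Dppa5a* the sums were 1993 and 1510, and *Pou5f1* had the largest decrease in RPKM among the markers summed. *Pou5f1* was lower with an RPKM of 619 and 182 (log2 ratio -1.76, and -1.03 after the GC correction). *Esrrb* was lower with 80.5 and 41.2, though within 1.5-fold after the GC correction (log2 ratio -0.31). None of 6 genes of mature hepatocytes reached an RPKM of 1 (summed RPKM 0.243 and 0.109), and *Alb* had no read, so the serum protein genes were measured where later liver genes were near 0. Of 6 trophoblast markers *Eomes* and *Tcfap2c* were higher, and *Cdx2*, *Elf5* and *Hand1* had at most 16 reads in either library. Of 6 blood and endothelial markers, 2 had an RPKM above 1. *Pecam1*, the best expressed, was near the control level (RPKM 15.4 and 15.6), and *Tal1* was lower (377 and 88 reads). The part of a different mixture of cell types in the endoderm values was not tested.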

How the data were processed

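Polyadenylated RNA of shLuc and shKdm5b R1 ES cells at 72 h was analysed, with 1 library per condition and groups from the labels. Per the labels, the reads were processed with CASAVA 1.0 and Bowtie 0.12.7 on mm8. The authors deposited, for each RefSeq entry, a whole-number read count and the RPKM computed from it. The deposited positions of aligned reads gave the library totals, and a further column of small whole numbers was not used. The counting program and its use of strand are not given in the sources used here, so reads of overlapping or antisense genes cannot be told apart.

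For each symbol, 1 entry was used, that of highest mean RPKM over both libraries. Log2 ratios used RPKM + 0.1. The members and the other gene lists were chosen with earlier results of these data known, and the text names all members and the 4 genes of highest mean RPKM of each other endoderm list, except where it says otherwise. The values of 1 listed gene are not reported here. Reads were not counted by molecule, so intervals at 95% and the floor of 3 reads cover counting error only. The study names edgeR without a dispersion. With no replicates its quasi-likelihood test could not be used, and edgeR 4.0.16 (R 4.3.3, exact test, FDR below 0.001) was an alternative at assumed dispersions of 0, 0.04 and 0.16. GC content (lowess fraction 0.3, statsmodels 0.14.6) came from GENCODE M21 transcripts and coordinates from RefSeq genes (GRCm38), both by accession. They describe the genes and not the alignments. The steps were tested on simulated data. Intervals were computed with SciPy 1.17.1 under Python 3.11.15, and tables were handled with NumPy 2.4.6 and pandas 2.3.3.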

Additional observations from a re-analysis of the deposited data

How the results depend on the processing

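The 16 members past the thresholds kept their calls and directions under pseudocounts of 1 and 0.01, 3 other scalings, summed entries, and corrections for GC content alone or with transcript length. No paired analysis was possible because shLuc and shKdm5b have 1 library each, and for the same reason no replicate could be left out. With an RPKM above 11 required, 2 members passed, and with no RPKM threshold 29 did. A fold change above 4, chosen after seeing the data, left 12. The edgeR exact test, which compares the libraries and not the conditions, left 16 members at a dispersion of 0 (5543 genes), 12 at 0.04 (272 genes) and 0 at 0.16 (1 gene), so the count depends on the variation assumed between cultures.

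The median log2 ratio of the members, -1.68, was -0.53 with a pseudocount of 1 and -2.52 with 0.01. It was -1.57 with the libraries scaled to a median of 0 (a shift of 0.17), -1.54 with TMM factors (0.22) and -1.55 with the 75th percentile made equal (0.19). Correction for GC content gave -1.52, and correction for length as well gave -1.48. Over members with a mean RPKM above 1 it was -2.39, and over all with a read -1.56. The sign changed for *Foxa1*, *Thbd*, *Rbp4* and *Apoa2* alone, whose counting intervals all span the control level. Depth limits genes with few reads, such as *Fga*, *Thbd* and *Apoa2*.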

Other observations

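*Apoc2*, a further apolipoprotein of the visceral endoderm, had 14 reads in shLuc and 0 in shKdm5b ES cells, whereas *Apoc1* had 199 and 510. Among the regulators with an RPKM below 1, *Lhx1*, a homeobox factor of the anterior visceral endoderm, had 139 and 13 reads, and *Dkk1*, a Wnt antagonist made there, had 118 and 22. Their log2 ratios were -2.18 and -1.72, and -1.98 and -1.78 after the GC correction. *Gsc* (33 and 21 reads) and *Mixl1* (50 and 35 reads), genes of the primitive streak and definitive endoderm, were closer to the control. Of the basement membrane chains that parietal endoderm makes, *Col4a1* had 5809 and 1427 reads, *Col4a2* 2386 and 401, and *Lama1* 1029 and 121. After the GC correction these stood at log2 ratios of -1.16, -1.53 and -2.10. *Lamb1*, a laminin chain of the same list, did not pass the thresholds, with 7852 and 5748 reads and a log2 ratio of 0.06 after the correction. These genes were chosen after their values were seen, and the differences have no replicate check.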
